A study of Mus musculus with 67 samples.

Results

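Gene expression in blood Ly6C- monocytes was compared with that in blood Ly6Cint monocytes of C57BL/6 mice aged 7 weeks, with 3 libraries of each, chosen by their labels. These are 6 of 67 RNA-seq samples in a series on murine monocytes and their marrow progenitors. These cells were sorted by flow cytometry after magnetic enrichment with CD115-biotin, CD115 being the receptor encoded by Csf1r. RNA was captured on oligo-dT beads. Blood Ly6C+ monocytes of the same table (4 libraries) gave the starting level. The same contrast was read in 3 sets of other libraries, with 2 libraries in each group. These were blood of wild-type mice of mixed background aged 16 weeks, and the blood and spleen of C57BL/6 mice aged 8 weeks. The mice aged 8 weeks were labelled as hosts of a cell transfer, sampled the day after it. Their sorts carry the name Gr1 in their titles. The labels do not say whether libraries of a group came from separate animals or pools, so p-values measure the spread between libraries, which may be technical.

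Classical monocytes of mouse blood carry high surface Ly6C, and most of them leave the blood for tissues, where they become macrophages. Some stay, lose Ly6C through an intermediate stage and become Ly6C- monocytes, which crawl along the inside of vessels, survive longer and depend on the nuclear receptor Nr4a1 and the transcription factor C/EBPb. The comparison of Ly6C- with Ly6Cint cells covers the later step of this course.

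The 3 Ly6C- libraries held 1063547, 1058788 and 1066378 reads on listed genes, and the Ly6Cint libraries 721848, 591352 and 867214. Values below are reads per 1000000 reads on listed genes after scaling between libraries, called scaled reads, and a log2 ratio is Ly6C- over Ly6Cint on scaled reads plus 1, which understates the change of low genes. Because the libraries are bulk sorts, fewer cells of a type and less RNA per cell cannot be told apart.

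The sorts carried monocyte markers. Csf1r stood at 2551, 2298 and 2976 in Ly6C- and 1953, 2153 and 2312 in Ly6Cint cells, with a log2 ratio of 0.28 (adjusted p 0.229, limma). Transcripts for Ly6C itself followed the gates: Ly6c2 was 96.2, 17.3 and 38.2 in Ly6C- cells, 652, 328 and 518 in Ly6Cint cells and 4835, 3855, 3737 and 4856 in Ly6C+ cells. Ly6C- replicate 1 held the most Ly6c2 of its group and 1079 scaled reads of Ccr2, the classical chemokine receptor, against 617 and 268 in replicates 2 and 3. Its correlation across genes with the Ly6Cint libraries was 0.931 to 0.937, and with its own group 0.932 and 0.943. Counts without replicate 1 are given beside the main ones.

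In the limma fit of all 25 libraries of the table, 419 of 11883 genes tested were higher in Ly6C- cells (3.53%) and 278 were lower (2.34%) at an adjusted p under 0.05. That fit takes its spread from all groups, and the groups differed in spread: the mean variance within a group was 0.0878 and 0.0795 in the marrow progenitors (MDP and cMoP) but 0.358 in blood Ly6C- and 0.441 in blood Ly6Cint cells. With the spread taken from the 10 blood libraries alone, 22 of 10892 genes were higher (0.202%) and 35 lower (0.321%). All the genes that are said below to have risen or fallen passed in both fits, 21 higher and 35 lower, and each of the 56 had all 3 libraries of one group above all 3 of the other. Genes that passed with 25 libraries only are named as such and are less certain, since on simulated counts that fit called more unchanged genes than its threshold allows. Without Ly6C- replicate 1, 709 genes were higher and 520 lower in the 25-library fit, and 41 and 70 in the 10-library fit, where 14 of the 21 and 33 of the 35 shared calls were still made. Leaving out 1 of the other 5 libraries left between 0 and 3 higher and between 5 and 11 lower in the 10-library fit.

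Among the genes that fell were 5 of the 17 tested genes listed as typical of Ly6C+ monocytes. This list and that of Ly6C- monocyte genes below were chosen with earlier results of these data known, so their counts are a description. Chil3, a secreted chitinase-like protein of classical monocytes, was 69.3, 39.6 and 37.2 in Ly6C- and 1336, 1217 and 1517 in Ly6Cint cells, a log2 ratio of -4.82 ± 0.37 (SE; adjusted p 4.9e-09 with 25 libraries, 2.06e-06 with 10). All 3 Ly6Cint libraries lay far above all 3 Ly6C- libraries. Ly6c2 had a log2 ratio of -3.55 ± 0.48 (SE, adjusted p 0.000135 with 25 libraries, 0.00088 with 10, limma). The groups are defined by Ly6C, so the fall of Ly6c2 follows the gates and is no separate finding. F13a1, the A subunit of coagulation factor XIII, went from 172, 151 and 115 to 47.6, 54.9 and 23.1 (-1.85 ± 0.43). Plac8 and the haemoglobin-binding protein gene Hp fell by 1.58 and 0.96 on the log2 scale. The list's median was -0.96, against 0.05 over all genes tested. Of all genes tested, 2.34% were called lower with 25 libraries and 8.08% were lower in every Ly6C- library, as were 8 of the list's members. Without 1 library between 4 and 9 of them were called lower, the latter without Ly6C- replicate 1, where 1 was called higher. Cd93 passed with 25 libraries only, and was lower. Ccr2 did not pass, at 1079, 617 and 268 against 1495, 1634 and 1431 (log2 -1.43, adjusted p 0.0537), with the Ly6C- libraries far apart from each other. Lyz2, Fn1 and Vcan had no difference that passed, and Vcan was at 0 in all 3 Ly6Cint libraries and 28.4 ± 5.6 (SD, n = 4) in Ly6C+ cells.

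Of 29 tested genes listed as typical of Ly6C- monocytes, 6 rose, 4 more passed with 25 libraries only, and none fell. In every Ly6C- library 21 were higher, with a list median of 0.81. Over all genes tested, 3.53% were called higher with 25 libraries, 10.6% were higher in every Ly6C- library, and the median was 0.05. The 10 calls became 11 without Ly6C- replicate 1, 7 and 5 without Ly6C- replicates 2 and 3, and 6, 7 and 9 without Ly6Cint replicates 1, 2 and 3. Cd300e, an activating receptor of the CD300 family, was 616, 921 and 1419.8 in Ly6C- and 116, 208 and 225 in Ly6Cint cells, a log2 ratio of 2.40 ± 0.39 (SE; adjusted p 0.000607 with 25 libraries, 0.00485 with 10). The lowest Ly6C- library lay above the highest Ly6Cint library, and Ly6C+ cells averaged 3.60 ± 0.871 (SD, n = 4). Fcgr4, the IgG receptor of Ly6C- monocytes, was 847, 809.9 and 1123 against 327, 268 and 374 (1.52 ± 0.30). Cd9, a tetraspanin, was 498, 611 and 630.5 against 157, 149 and 229 (1.72 ± 0.30). Pparg, a lipid-sensing nuclear receptor, S1pr5, a sphingosine phosphate receptor, and Dusp16, a MAP kinase phosphatase, rose by 1.55, 1.14 and 1.43 on the log2 scale. Pecam1 (2.12; adjusted p 0.000507 with 25 libraries and 0.0507 with 10) and Itgax (1.38; 0.0341 and 0.151) passed with 25 libraries only, as did Cd274 and Treml4.

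The regulators best known for Ly6C- cells did not pass in both fits. Nr4a1 was 1434, 1906 and 1705 in Ly6C- and 1059, 991 and 872 in Ly6Cint cells; the groups did not overlap, but the log2 ratio of 0.78 ± 0.30 had an adjusted p of 0.122 (limma, 25 libraries). Cebpb was 1040.3, 1589 and 1971 against 742, 779.7 and 731 (log2 0.98; adjusted p 0.00873 with 25 libraries and 0.112 with 10), with its lowest Ly6C- value in replicate 1. Klf2, Cebpa, Cebpd, Klf4, Irf8 and Spi1 had log2 ratios of 0.73, -0.54, -0.37, 0.01, -0.10 and -0.28, none with an adjusted p under 0.05. Cx3cr1, the fractalkine receptor, was 996, 809.9 and 446 against 904, 966 and 897, and the groups overlapped. Of 70 transcription factors tested, Pparg alone passed in both fits. Foxo3, Smad3, Id2 and Cebpb (higher) and Runx3 (lower, 36.2, 27.4 and 30.2 against 73.8, 72.9 and 58.8) passed with 25 libraries only. With 25 libraries, 7.14% of the list was called higher and 1.43% lower, against 3.53% and 2.34% of all genes tested.

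**Figure D1:**
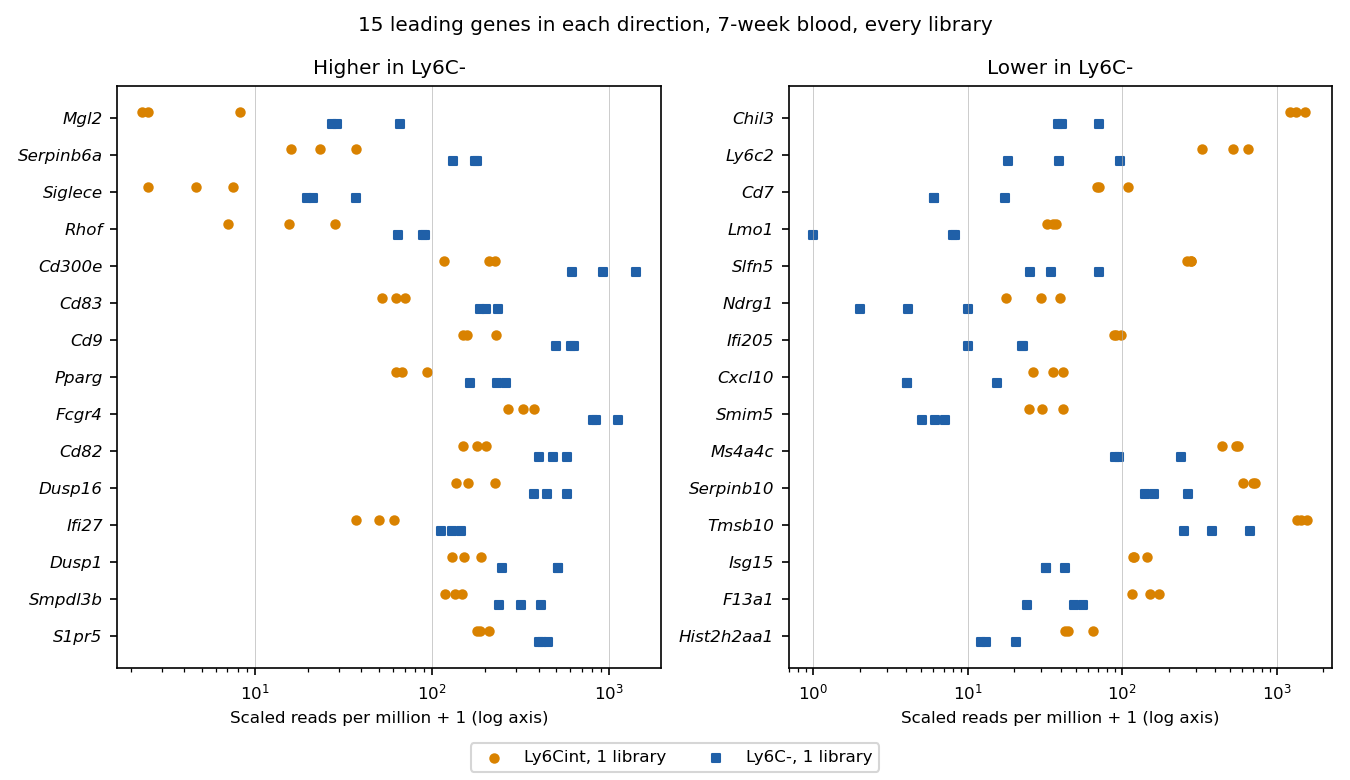
Scaled reads plus 1 (log axis) of the 15 leading genes in each direction; each circle is 1 Ly6Cint library and each square 1 Ly6C- library (n = 3 each). Genes were shown only where the groups do not overlap, and of those shown Chil3 in the right panel is the widest apart.

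Further leading genes rose. Mgl2, a C-type lectin receptor of macrophages and dendritic cells, was 27.9, 65.0 and 26.1 against 1.51, 7.29 and 1.31, a log2 ratio of 3.36 ± 0.57 (SE; adjusted p 0.000878 with 25 libraries, 0.0323 with 10). Serpinb6a, an intracellular protease inhibitor, was 130.3, 175 and 179 against 15.1, 36.4 and 22.2, and the small GTPase gene Rhof 87.9, 63.0 and 90.5 against 6.02, 14.6 and 27.4. Siglece, an inhibitory sialic acid receptor, was 18.6, 20.3 and 36.2 against 1.51, 3.64 and 6.53 and stood at 24.4 ± 6.92 (SD, n = 4) in Ly6C+ cells, so its low point was in Ly6Cint cells. Cd83 was 186, 201 and 235 against 69.3, 61.9 and 51.0 and the tetraspanin Cd82 399, 484 and 577 against 149, 179 and 201. Dusp1, an immediate early phosphatase that ends MAP kinase signals, was 248, 515 and 512 against 188, 129 and 150.3, with replicate 1 again lowest in Ly6C- cells. Ifi27, Smpdl3b, Hfe, Agpat4 and Pilra rose by 1.41, 1.24, 1.14, 1.10 and 0.94 on the log2 scale. Nes, an intermediate filament gene, was 15.5, 14.2 and 8.04 and Pced1b 8.27, 5.08 and 9.05, with no read in any Ly6Cint library. Hfe, Agpat4, Pilra, Nes and Pced1b were picked after their values were seen.

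Cd7, a receptor of lymphocytes, was 16.5, 5.08 and 5.03 in Ly6C- and 69.3, 67.4 and 107 in Ly6Cint cells, a log2 ratio of -3.22 ± 0.53 (SE; adjusted p 0.000631 with 25 libraries, 0.0223 with 10). Slfn5, of the Schlafen family, was 69.3, 33.5 and 24.1 against 264, 277 and 278. Tmsb10, which binds actin monomers, was 674, 381 and 250.4 against 1577, 1432 and 1357, and Serpinb10 266, 161 and 139.8 against 601, 703 and 727. Lmo1 was 7.24, 0 and 7.04 against 34.6, 36.4 and 31.4 and Ndrg1 3.10, 1.02 and 9.05 against 16.6, 38.3 and 28.8, values of few reads. Smim5 and Ms4a4c fell by 2.39 and 2.01 on the log2 scale. Hist2h2aa1 and its near-identical copy Hist2h2aa2 had the same values (19.6, 11.2 and 12.1 against 63.2, 43.7 and 41.8), so their reads cannot be assigned to either. Tgfbi, a secreted matrix protein, was 263, 258 and 261 against 730.3, 723 and 728, and the galectin gene Lgals1 362, 281 and 220.2 against 678, 652 and 691, both picked after their values were seen. Trem2, a lipid-binding receptor of macrophages, was 31.0, 40.6 and 22.1 against 87.3, 94.7 and 108.

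Interferons induce a common set of antiviral genes through the factor ISGF3, which binds the interferon-stimulated response element. Of 49 such genes tested, 4 fell, 5 more passed with 25 libraries only, all lower, and none was called higher. In every Ly6C- library 25 were lower and 2 higher, and the median was -0.56. Ifi27, named for its induction by interferon, was not on this list and rose. Over all genes tested, 2.34% were called lower with 25 libraries, 8.08% were lower and 10.6% higher in every Ly6C- library, and the median was 0.05. The 9 calls became 13 without Ly6C- replicate 1, 5 and 6 without Ly6C- replicates 2 and 3, and 4, 8 and 6 without Ly6Cint replicates 1, 2 and 3. Isg15, a ubiquitin-like modifier, was 31.0, 41.7 and 31.2 in Ly6C- and 145, 117 and 119 in Ly6Cint cells, a log2 ratio of -1.85 ± 0.27 (SE; adjusted p 0.000254 with 25 libraries, 0.00088 with 10), and 291 ± 11.1 (SD, n = 4) in Ly6C+ cells. Cxcl10, a chemokine, was 14.5, 3.05 and 3.02 against 34.6, 25.5 and 40.5, Ifi205 21.7, 21.3 and 9.05 against 97.9, 87.4 and 90.2 and Ifi27l2a 1444, 1335 and 1406 against 3402, 2725 and 3236. Ifi205 belongs to a cluster of similar genes whose reads the counting could have split. Xaf1, Oasl1, Ifitm3, Eif2ak2 and Rsad2 were the 5 that passed with 25 libraries only. The 11 markers of plasmacytoid dendritic cells, which make interferon, had summed levels of 525 to 594 in Ly6C- and 541 to 649 in Ly6Cint libraries. Lair1, which monocytes also express, made up most of these sums (372, 334 and 341 against 292, 348 and 259). The 9 tested markers had a median log2 ratio of -0.83, and 3 were lower in every Ly6C- library. Of these, Siglech was 4.14, 3.05 and 4.02 against 15.1, 7.29 and 14.4, and Tcf4 75.5, 60.0 and 53.3 against 141.5, 85.6 and 115, and Ly6d 4.14, 0 and 5.03 against 55.7, 10.9 and 18.3. Klk1 was at 0 in all 6 libraries. Their part in the result was not tested.

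Upstream sequences of 4 of the 9 interferon genes called lower with 25 libraries (RefSeq, build GRCm38.p6) held the core of this element, GAAA, 2 bases of any kind, GAAA, within 250 bases before the start. They are shown because these genes were lower together; Rsad2 is the one that did not pass with 10 libraries. Each line gives 40 bases on the gene's strand, with the core in capitals; in Rsad2 the core lies on the opposite strand.
Cxcl10: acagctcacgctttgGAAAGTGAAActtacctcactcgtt
Ifi205: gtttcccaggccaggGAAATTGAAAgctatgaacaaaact
Isg15: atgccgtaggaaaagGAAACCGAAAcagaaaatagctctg
Rsad2: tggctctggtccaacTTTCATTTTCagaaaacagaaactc

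The windows lie at chr5:92349078-92349117 for Cxcl10, chr1:174031865-174031904 for Ifi205, chr4:156200866-156200905 for Isg15 and chr12:26456548-26456587 for Rsad2, all on the minus strand of the chromosome. In Isg15 3 overlapping matches follow each other. Promoters were matched by symbol for 8 of the 9 called interferon genes, and 4 held the core on either strand (50%), as did 17 of 36 in the whole interferon list (47.2%), called or not. Over all 9053 tested genes with a promoter the share was 3.32%. It was 6.74% among the 193 lower genes and 5.07% among the 335 higher genes of the 25-library fit. A C/EBP site with 2 free bases (TTGCNNAA, on either strand) was found in 9.55% of higher, 11.9% of lower and 9.04% of all promoters. The Nr4a site AAAGGTCA was in 2.39%, 1.04% and 1.12%. The AP-1 site TGANTCA was in 6.57%, 10.4% and 5.3%, and the PU.1 site GAGGAAGT in 4.18%, 3.63% and 3.37%. Among the calls shared by both fits, 24 lower and 19 higher genes had a promoter. The interferon core was in 25% of the lower (6 genes) and 15.8% of the higher ones (3 genes). The 6 include Cxcl10, Ifi205 and Isg15, already shown above. The AP-1 site was in 25% and 10.5%, the C/EBP site in 4.17% (1 gene) and 15.8%, the PU.1 site in 8.33% and 10.5%, and the Nr4a site in 4.17% (1 gene) and 0%. Matches are letters in a window and were given no test.

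**Figure D2:**
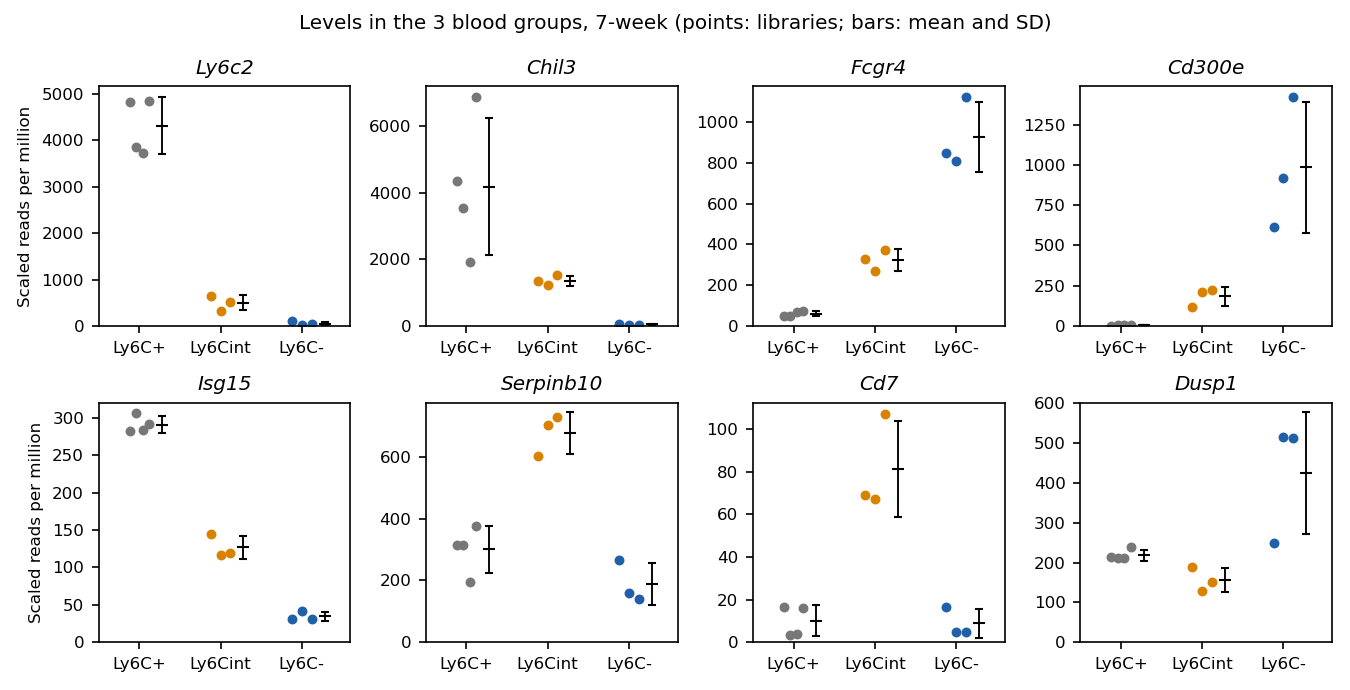
Scaled reads of 8 genes in the 3 blood groups; points are libraries (n = 4, 3 and 3) and bars the mean and SD. Ly6c2, Chil3 and Isg15 step down from Ly6C+ to Ly6C-, Fcgr4 and Cd300e step up, Serpinb10 and Cd7 are highest in Ly6Cint and Dusp1 is lowest there.

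Set beside Ly6C+ cells, 17 of the 21 genes that rose had group means in the order Ly6C+, Ly6Cint, Ly6C-, and 26 of the 35 that fell had the reverse order. The other 9 that fell were highest in Ly6Cint cells and the other 4 that rose were lowest there. Between Ly6Cint and Ly6C+ cells, 1252 genes were called higher (10.5%) and 1388 lower (11.7%) with 25 libraries. These orders share the Ly6Cint libraries with the comparison itself and are a description. Against the midpoint of Ly6C+ and Ly6C-, 435 genes stood above in Ly6Cint cells (3.66%) and 677 below (5.7%) with 25 libraries, and 27 and 16 with 10. Cd7 stood 3.18 above the midpoint (adjusted p 0.000305 and 0.00948), and Bcl2a1d 2.42 above it (0.000535 and 0.0114). Bcl2a1d, a survival gene with near-identical copies, was 165, 72.1 and 103 in Ly6C-, 99.4, 94.7 and 122 in Ly6Cint and 3.13 ± 2.51 (SD, n = 4) in Ly6C+ cells, and the Ly6Cint and Ly6C- libraries overlapped. Siglece stood at -2.48 against the midpoint on the log2 scale, and passed in both fits, as did Vcan. Sdc1, Lax1, Klrd1, Uba6, Ube2w and Rn45s (above) and C1rl, Coq10a, Mmp19, F8a, Kdm4a and Map3k6 (below) passed with 25 libraries only. Without Ly6C- replicate 1 the midpoint counts were 862 above and 1075 below, and without Ly6C+ replicate 1 they were 787 and 905.

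Ribosomal proteins build the ribosome, and the complexes of oxidative phosphorylation make ATP in mitochondria. Among 83 ribosomal protein genes tested, 55 were lower in every Ly6C- library and none was higher in every one, and the median was -0.59. Rps9 fell from 4272, 3737 and 4398 to 2621, 1833 and 1478, a log2 ratio of -1.10 ± 0.17 (SE; adjusted p 0.000462 with 25 libraries, 0.0444 with 10). Of the rest, 23 passed with 25 libraries only, all lower, among them Rpl19, Rpl27a and Rps10. The 24 calls became 39 without Ly6C- replicate 1, 6 and 4 without Ly6C- replicates 2 and 3, and 10, 13 and 10 without Ly6Cint replicates 1, 2 and 3. Many ribosomal protein genes have processed copies, and their reads could have been split in counting. Among 78 genes of oxidative phosphorylation, 4 passed with 25 libraries only, all lower (Cox4i1, Cox6c, Cox7b and Ndufa13), and the median was -0.32. In every Ly6C- library 26 were lower and 3 higher. Without Ly6C- replicate 1, 15 were called lower and 1 higher, and without 1 of the other libraries 0 to 2 were called lower. Rn45s, the precursor of ribosomal RNA, was 7479, 2489.6 and 1739 in Ly6C- and 6600.1, 13489 and 9414 in Ly6Cint libraries. Replicate 1 of Ly6C- lay inside the Ly6Cint range. The summed ribosomal protein genes were 56044, 47168.5 and 43991.5 in Ly6C- replicates 1, 2 and 3. In Ly6Cint replicates 1, 2 and 3 they were 73215.5, 66718 and 71081. Their order among replicates was that of Rn45s in Ly6C- and the reverse of it in Ly6Cint libraries. The part of Rn45s in the result was not tested. Across all genes tested, 3.53% were called higher and 2.34% lower with 25 libraries, and 10.6% were higher and 8.08% lower in every Ly6C- library.

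H2-Ab1, H2-Aa and Cd74, of the MHC class II pathway, averaged 4904 against 4758, 5764 against 4549 and 4049 against 3544 scaled reads in Ly6C- and Ly6Cint cells, and none passed. Of 17 genes of that list, Cd83 rose, and H2-Eb2 and Cd80 passed with 25 libraries only, both lower and both below 10 scaled reads in every library. Of 25 genes of lipid uptake and efflux, Pparg rose and Abcg1, a cholesterol exporter, passed with 25 libraries only (114, 128 and 169 against 72.3, 56.5 and 108). Of 6 Fc receptors tested, Fcgr4 rose, and Fcgrt (0.94) and the high-affinity receptor Fcgr1 (-1.08) passed with 25 libraries only.

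Of 28 adhesion molecules, Cd82 and Cd9 rose, Pecam1, Itgax and Itgb2 passed higher and Itgb7 lower with 25 libraries only, and 13 were higher in every Ly6C- library. For this and the lists below, the shares of all genes tested were 3.53% called higher and 2.34% lower with 25 libraries, and 10.6% higher in every Ly6C- library. Among 23 chemotaxis receptors, S1pr5 rose and none fell. In the list of paired and C-type lectin receptors, 3 of 31 rose (Cd300e, Mgl2 and Siglece) and Trem2 fell, while Treml4 (higher), Treml2 and Clec4a2 (lower) passed with 25 libraries only. Dusp1 was the only one of 22 immediate early genes to rise, with Ier2 and Ier5 higher in the 25-library fit alone, 9 higher in every Ly6C- library and a median of 0.47. Dusp1 and Dusp16 were the 2 of 28 feedback inhibitors that rose, and Rgs18 was lower with 25 libraries only. Of 25 NF-kappaB genes, Cd83 rose, while Tnf (14.5, 52.8 and 50.3 against 1.51, 9.11 and 13.1) was higher and Ccl2 lower with 25 libraries only.

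Other lists had no member that passed in both fits. Of 23 regulators of apoptosis, Bad, which promotes cell death, was lower with 25 libraries only (37.2, 24.4 and 23.1 against 49.7, 54.7 and 82.3); Bcl2 averaged 342 against 279 scaled reads and Mcl1 1209 against 1099, and neither passed. Of 40 cell cycle genes, Aurkb was lower and Mcm5 higher with 25 libraries only. Psap, Cd63 and Galns of 35 lysosome genes were lower, Psmd4, Psmd5 and Psmd2 of 38 proteasome genes higher, and Pfkp of 24 glycolysis genes higher, again with 25 libraries only. The same held for Cfp and Itgax (higher) and Cfb (lower) of 15 complement genes. None of 28 cytokine and growth factor receptors passed in either limma fit, with 9 at an unadjusted p under 0.05 and 0 called by edgeR and 1 by DESeq2. None of 17 scavenger and dying-cell receptors passed there either, with 6 at an unadjusted p under 0.05, 1 called higher by edgeR and 2 by DESeq2. For 21 cholesterol synthesis genes, none of which passed in the limma fits, these numbers were 3, 0 and 1.

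**Figure D3:**
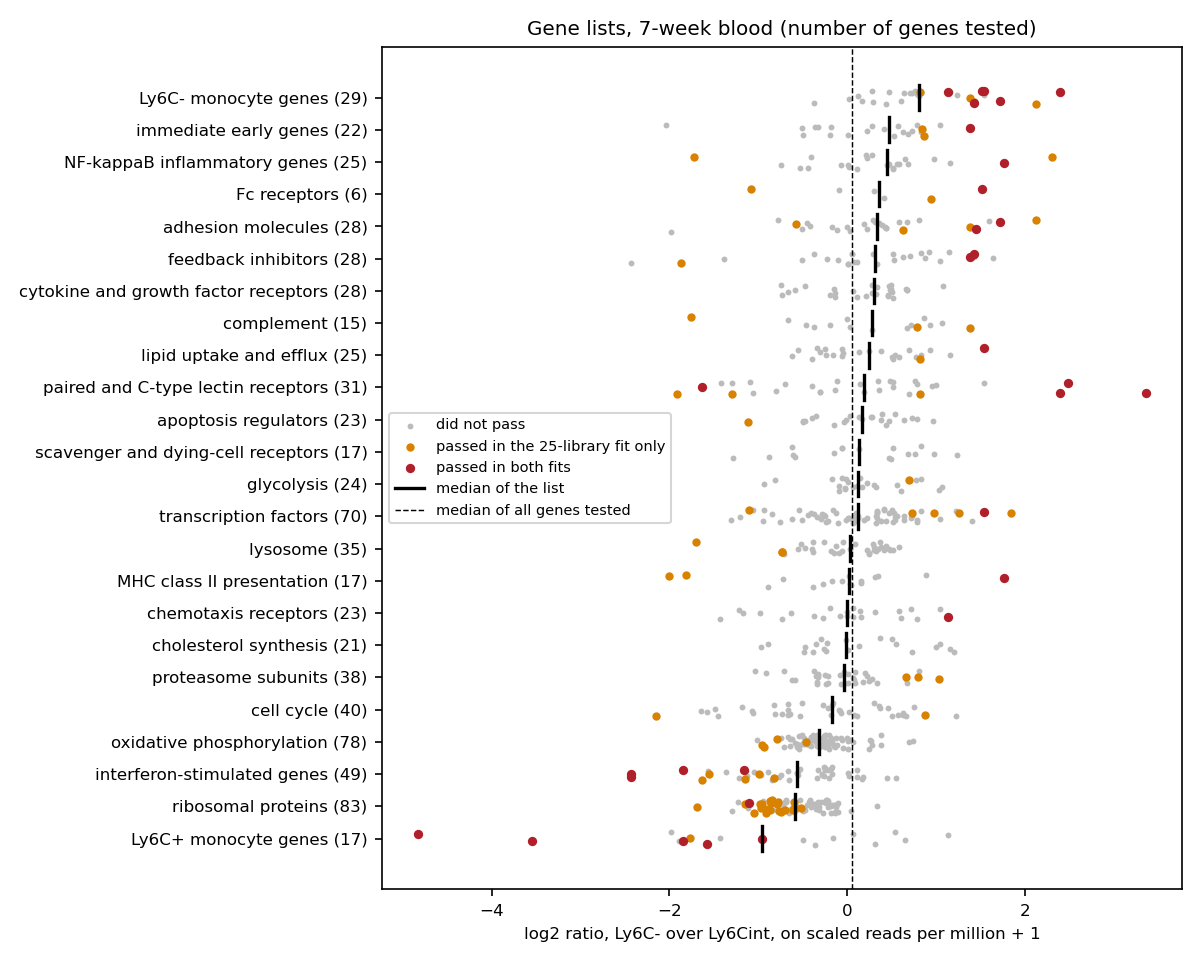
Log2 ratio of Ly6C- over Ly6Cint for every tested gene of the lists shown; red points passed in both fits, orange points with 25 libraries only, thick bars are list medians and the dashed line the median of all genes tested (0.05). List medians run from -0.96 for Ly6C+ monocyte genes to 0.81 for Ly6C- monocyte genes.

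Summed levels of markers of other blood cells overlapped between the groups, except those of macrophages and the low ones of eosinophils (1.01 to 7.24 in Ly6C- and 7.84 to 10.9 in Ly6Cint libraries) and of basophils and mast cells (1.01 to 1.03 and 1.31 to 3.64). Summed levels were 49.8 to 67.2 for 21 T and NK cell genes in Ly6C- libraries and 58.8 to 100.2 in Ly6Cint libraries, with Ncr1 at 0 in all 6 libraries. Klrd1 made up most of the Ly6Cint sums (34.6, 56.5 and 30.1). Of 11 tested, 2 were higher in every Ly6C- library, Cd3d and Gzma (7.24, 7.11 and 14.1 against 1.51, 1.82 and 3.92), and 1 was lower. An unadjusted p under 0.05 (limma) was found for 6 of the 11, and 0 were called. The 14 B cell genes summed to 120 to 136 against 83.8 to 139, with Cd79a at 0 in all 6. Cd79b was the largest part (74.5, 90.4 and 71.4 against 55.7, 47.4 and 90.2). Of 7 tested, Cd22 was higher in every Ly6C- library (43.4, 40.6 and 36.2 against 28.6, 14.6 and 6.53), 0 were lower in every one, and 0 were called. Neutrophil genes summed to 156 to 183 in Ly6C- libraries and to 115 to 645 in Ly6Cint libraries, where S100a8 and S100a9 stood at 122 and 184 in replicate 1. Csf3r made up most of the Ly6C- sums (96.2, 150 and 117, against 66.3, 71.1 and 87.6 in Ly6Cint libraries). Globin and other erythroid genes ran from 109 to 1275 and from 52.7 to 4732. Tissue macrophage genes, which monocytes also express in part, summed to 981 to 1297 against 532 to 795. Adgre1 (312, 351 and 437 against 169, 209.5 and 188), C1qa (225, 257 and 209 against 102, 102 and 163), C1qb and C1qc made up most of these sums. Adgre1 passed with 25 libraries only, and the C1q genes in neither fit. Of 9 tested, 3 were higher and 1 lower in every Ly6C- library. Mertk and Vcam1 were at 0 in all 6. Dendritic cell genes summed to 525 to 749 in Ly6C- and 579 to 657 in Ly6Cint libraries, and the 12 tested had a median log2 ratio of -0.15. Of these, Mgl2 rose and Clec9a was lower with 25 libraries only. Tcf4, of plasmacytoid dendritic cells, was also lower with 25 libraries only. The part of these cells in the results above was not tested.

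The 56 genes were followed in the other libraries, which share none with the 7-week comparison. In wild-type blood at 16 weeks all 20 tested higher genes and all 35 lower genes had the same sign, where 48.7% and 48.8% of all genes tested had that sign. In host blood the counts were 18 of 21 and 34 of 35, and in host spleen 21 of 21 and 33 of 35. Of all genes tested, 11 were called higher (0.0938%) and 60 lower (0.512%) at 16 weeks, 1 (0.00827%) and 15 (0.124%) in host blood, and 7 (0.0579%) and 24 (0.198%) in host spleen. Of the 35 lower genes, 16, 7 and 6 were called lower there, and of the 21 higher genes 3, 0 and 3 were called higher. None of the 697 genes called at 7 weeks was called the opposite way, though some of those named were fully apart in the opposite direction, among them Cfp at 16 weeks (-1.12) and in host spleen (-0.90).

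Tmsb10 was the only one of the 56 called in all 3 of these comparisons, with log2 ratios of -1.46 at 16 weeks, -1.33 in host blood and -1.19 in host spleen. Chil3 had -2.74, -5.17 and -3.16, called in both host comparisons, and Trem2 -2.07, -1.46 and -2.36, called at 16 weeks and in host spleen. Capg, S100a6 and Crip1, which passed at 7 weeks with 25 libraries only, were also called lower in all 3. S100a6 and Crip1 were picked after their values were seen. Fcgr4 had 1.50, 1.48 and 1.69, and Cd300e 1.69, 1.47 and 2.30, each called in host spleen only. Nr4a1 and Cebpb had 0.15 and 0.12 at 16 weeks and -0.02 and 0.13 in host blood, and 0.54 and 0.48 in host spleen, and neither was called in any of them. Mgl2, Nes and Pced1b, all of them genes of few reads, were lower in Ly6C- cells of host blood (-1.81, -1.48 and -1.28), where none was called and Pced1b was lower in both libraries. Ccr2, which missed the threshold at 7 weeks, had -0.83, -1.80 and -2.05, none called. Serpinb10 was lower in each but by little (-0.40, -0.46 and -0.39), and no comparison called it.

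**Figure D4:**
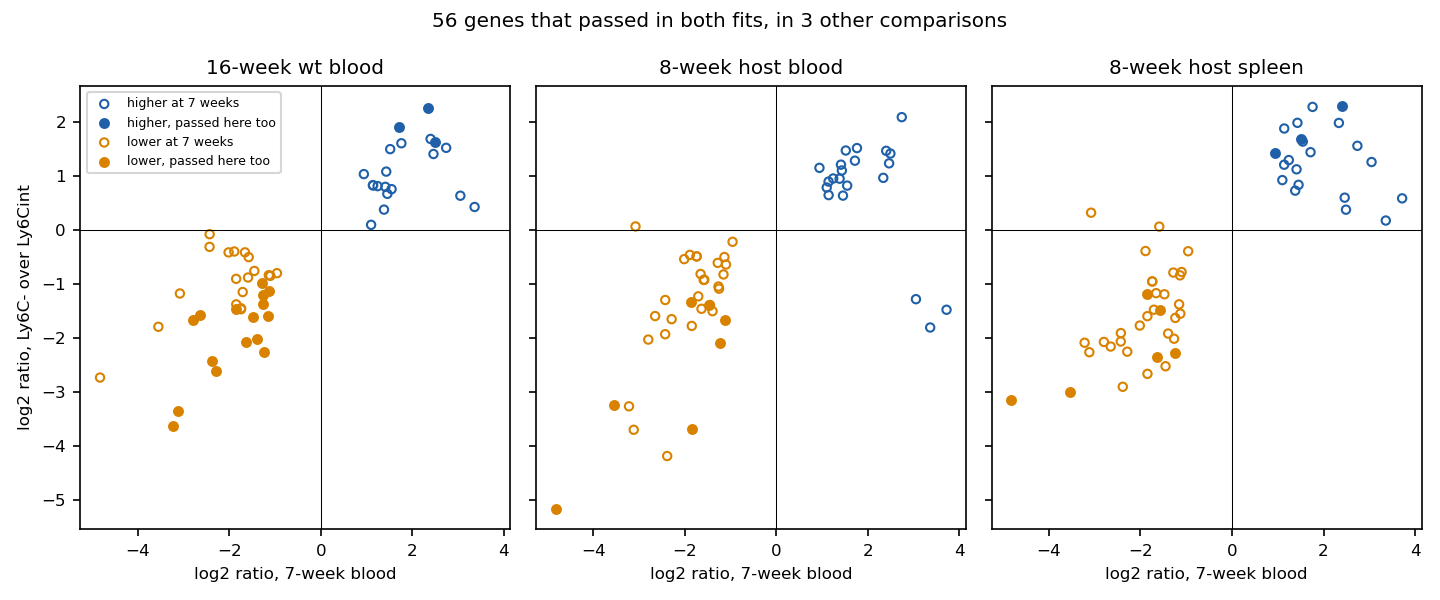
Log2 ratio of Ly6C- over Ly6Cint for the 56 genes at 7 weeks (horizontal axis) and in 3 other comparisons (vertical axis; n = 2 libraries a group); filled points were called there too. In wild-type blood at 16 weeks all points lie in the quadrants of equal sign, and in host blood 3 of the higher genes lie below 0.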

How the data were processed

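Per the submitters' processing notes, bcl2fastq, HISAT 0.1.5, SAMtools and HOMER were used with build mm9; their roles are not given in the sources used here. The authors deposited scaled read signal per gene for the 7-week and 16-week libraries, and a rounded score per gene, of unknown depth, for the hosts. Dividing each deposited signal column by the value of 1 read gave whole reads within 0.1 for 100% of values. Values were scaled to reads per 1000000 on listed genes with TMM factors (edgeR 4.0.16) and genes at 2 or more in at least 3 libraries (2 in other tables) were tested on log2(value + 1) with limma 3.58.1 (R 4.3.3) and Benjamini-Hochberg adjustment, using all 25 libraries. On counts simulated with known changes, this fit called more unchanged genes than its threshold allows, mostly at low values; the fit of the 10 blood libraries, and the calls shared by both, stayed near it. The text therefore leads with the shared calls. The share of unchanged genes among them was not tested in the measured libraries. The count test on recovered reads (edgeR) called 182 genes higher and 176 lower, and DESeq2 1.42.0 called 309 and 308. Leading genes were the 15 most changed each way among those passing in both fits, with no overlap and a mean of 20 or more in the higher group; up to 4 called members of each of 37 lists, fixed regulators and 8 midpoint genes each way were also named. The members and lists were chosen with earlier results of these data known. A few list members, and 1 list, are not reported here. Upstream sequences are from RefSeq (GRCm38.p6).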

Additional observations from a re-analysis of the deposited data

Results flagged for a closer look

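For 42 leading or fixed genes the 4 blood Ly6C+ libraries were checked for 1 library far from the others, which chance alone flags in about 1 group in 20. In Dusp1 the highest library stood at 238 scaled reads and the others between 210.2 and 214, a gap of 0.871 of the range. In Csf1r the highest was 2221 and the others between 1647 and 1697, a gap of 0.912 of the range.

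For 120 genes, those named by rule and those called in both fits, the groups were also compared across tables wherever the 7-week libraries did not overlap. In 14 of 315 such comparisons the libraries of the other table did not overlap either but lay in the opposite direction; these differences between tables were not tested, and with 2 libraries a group none was called. Higher at 7 weeks and lower elsewhere were Pced1b in host blood (log2 ratio -1.28), Cfp at 16 weeks (-1.12) and in host spleen (-0.90), Kdm4a at 16 weeks (-0.79) and in host spleen (-0.78), and F8a (-0.37), Psmd4 (-0.29) and Psmd2 (-0.10) in host spleen. Lower at 7 weeks and higher elsewhere were Lax1 (2.11) and H2-Eb2 (1.70) in host spleen, Bad (0.84), Uba6 (0.73) and Ube2w (0.49) in host blood, and Tcf4 at 16 weeks (0.40). Uba6 and Ube2w had not passed at 7 weeks.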

How the results depend on the processing

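The number of genes called depended strongly on the setting. Calls shared with the comparison as reported kept their direction, which settings on the same scaled values largely fix in advance. With 419 higher and 278 lower in the comparison as reported, the counts were 825 and 184 on the deposited library total, where the median of all genes moved from 0.05 to 0.20 and 81.8% of calls were higher in place of 60.1% (53.4% under quantile normalisation, 50.8% with edgeR and 50.1% with DESeq2). They were 182 and 176 with edgeR, 22 and 35 with the 10 blood libraries, 89 and 84 with the 6 compared libraries and 248 higher with library weights. With the 14 blood and marrow Ly6C- libraries, chosen after seeing the data, they were 52 and 46. Leaving out 1 library gave 128 to 709 higher and 114 to 520 lower with 25 libraries. With the 10 blood libraries, an alternative also chosen after seeing the data, it gave 0 to 41 higher and 5 to 70 lower (7 lower without Ly6Cint replicate 2, and 11 without Ly6C- replicate 2 or 3). The midpoint counts of 435 above and 677 below became 1465 below on the deposited total, 268 below with edgeR, 393 below with DESeq2, 27 and 16 with the 10 blood libraries and 92 and 200 with library weights, and ran from 182 to 862 above and from 358 to 1075 below without 1 library. The cause was not tested.

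The replicate block gave 391 higher and 256 lower with 25 libraries. With the 6 compared libraries it gave 182 and 214, where the counts without the block were 89 and 84. Same-numbered deviations from the group mean correlated at 0.0367, -0.00248 and 0.00789, and 3 of 6 libraries deviated most like their own number. With so few libraries these values cannot decide whether a number marks a shared animal or day.

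At 16 weeks 71 genes became 116 within blood and 18 to 83 without 1 library. In host blood 16 became 43 without a filter, 5 within blood and 4 to 20 without 1 library, and in host spleen 31 became 76, 10 and 5 to 12.

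Of the 21 higher and 35 lower genes called in both fits, 17 to 21 and 33 to 35 stayed called in the 25-library fit without 1 library, 20 and 35 with edgeR (1 not tested), 19 and 35 with DESeq2 (2 not tested), 16 and 32 with library weights, and 0 to 14 and 5 to 33 in the 10-library fit without 1 library. None changed sign in any of these settings. Because their groups did not overlap, the limma fits without 1 library or with library weights could not have changed it. With 591352 to 867214 reads, 1 read in a Ly6Cint library is worth up to 1.82 scaled reads, which limits genes under about 10.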
